A study of Mus musculus with 12 samples.

Results

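The IL-6 receptor and its SOCS feedback genes were followed in T cell receptor transgenic thymocytes through 8 genes, Il6ra, Il6st, Jak1, Stat3, Socs1, Socs2, Socs3 and Cish. Members were all probe sets annotated to 1 of these gene symbols alone, after symbols were updated by gene ID. This gave 11 of the 12422 probe sets that are not controls. Il6st, Stat3 and Socs3 had 2 probe sets each, called brighter and dimmer here by their mean log2 intensity, and the other 5 genes had 1 each. The genes were chosen by measured values, since the log2 differences of Il6ra and Socs3 between HY_high and HY_low, both lower in HY_high, had drawn attention to the pathway. That comparison is therefore a description for all members and carries no test. Il6ra and Socs3 carry none against OT1 either, because those comparisons share the HY arrays.

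The data are 12 Affymetrix mouse arrays hybridised with total RNA of thymocytes taken from RTOC at day 6. RTOC is a culture in which thymocytes develop in reaggregated thymic tissue. OT1 held 4 arrays of OT1-TCR thymocytes with no peptide named, HY_low held 4 of HY-TCR cultures with Smcy peptide at 1e-07 M, and HY_high held 4 with Smcy at 1e-05 M. The OT1 receptor recognises an ovalbumin peptide and the HY receptor a male peptide encoded by Smcy, both on MHC class I. HY_low and HY_high share the receptor and differ in the stated dose, while either HY group differs from OT1 in receptor and peptide together. The sample titles also carry different letters in HY_low (ab) and HY_high (aa), which the labels do not explain and which cannot be told apart from the dose. The labels give neither the strain, sex or age of the mice nor how cells were sorted or pooled. Whether the arrays of a group stem from separate cultures is not stated, and p-values therefore reflect the spread among arrays, which may be technical.

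Values are the deposited intensities on a linear scale, with array medians between 3.33 and 3.97, a lowest value of 1, and 66.4% of values below 8. The number of arrays limits the precision. Arrays with the same number deviated together across groups, so values within numbers 1 to 4 are given beside the group values. On arrays numbered 2, 19.0% of values stood at 1 in OT1, 5.18% in HY_low and 3.0% in HY_high. Of the 12 listed thymocyte markers 10 had a probe set with that symbol alone, and all 10 exceeded 8 on some array. Cd3g ran from 66.5 to 719, while Cd4 never exceeded 9.19.

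Interleukin-6 binds its receptor chain IL-6R alpha, encoded by Il6ra, and the complex recruits gp130, the shared signalling chain encoded by Il6st. JAK kinases on gp130, JAK1 among them, then phosphorylate STAT3, which enters the nucleus and raises the transcription of its targets. Socs3 is one of these targets, and its protein binds gp130 and the JAKs and shuts the signal down. Cish, Socs1 and Socs2 belong to the same family of feedback inhibitors and are induced by other cytokines as well, Cish and Socs2 typically through STAT5. Mature T cells lose surface IL-6 receptor after stimulation of their antigen receptor.

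Il6ra (probe set 104268_at) was dim in HY_high and brighter in OT1 and HY_low. On OT1 arrays 1 to 4 its intensity was 11.8, 8.39, 44.1 and 42.0. In HY_low it was 39.6, 6.23, 14.7 and 25.5. In HY_high it was 6.40, 1.16, 5.42 and 2.92, so all 4 HY_high arrays lay below 8 and below every OT1 array. HY_low overlapped HY_high only through its array 2, at 6.23, just under the 6.40 of HY_high array 1. OT1 and HY_low overlapped widely. In bulk RNA such as this, fewer cells of a type and less RNA per cell cannot be told apart.

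The geometric mean of Il6ra was 3.29 in HY_high, 17.4 in HY_low and 20.7 in OT1 (n = 4 each). HY_high minus HY_low was -2.40 ± 0.70 (SE) on the log2 scale, and HY_high minus OT1 was -2.65 ± 0.70. HY_low minus OT1 was -0.25 ± 0.70, smaller than its error, with values of 1.75, -0.43, -1.59 and -0.72 within numbers 1 to 4. Its sign turned when OT1 array 3 or 4 or HY_low array 2 was left out, with values up to 0.25. Within numbers 1 to 4 HY_high lay below HY_low by log2 differences of -2.63, -2.43, -1.44 and -3.13, and 9.76% of the 8695 probe sets tested were lower within all 4 numbers in that comparison. HY_high was also below OT1 within all 4 numbers, as were 8.74% of probe sets, and HY_high and OT1 did not overlap, as for 1.01% in that direction. Since HY_high was dim throughout, the size depends on how low values are treated. With intensities under 8 set to 8, the difference was -1.21 from HY_low and -1.37 from OT1, and with 16 in place of 8 it was -0.50 and -0.71.

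Il6st, the gp130 chain that Il6ra needs to signal, showed no difference of that size. Its brighter probe set (94345_at) was at 15.5, 12.2, 32.4 and 18.1 on OT1 arrays 1 to 4, at 17.2, 14.5, 31.0 and 30.8 in HY_low and at 21.3, 12.9, 26.3 and 30.5 in HY_high. All 3 groups overlapped over nearly their whole range, and array 2 was the lowest in each. HY_high minus HY_low was -0.03 ± 0.45, a difference smaller than its error. Against OT1 the log2 difference was 0.27 in HY_low (95% interval -0.68 to 1.23) and 0.25 in HY_high (-0.71 to 1.21), with limma adjusted p = 1.0 for both (Benjamini-Hochberg over all 8695 probe sets). These intervals leave room for about a doubling. The dimmer probe set (98349_at) stayed between 1.67 and 4.38 on all 12 arrays and can say little about the gene.

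Jak1, the kinase attached to gp130 and to many other cytokine receptors, was read by 98911_at. It was at 156, 110, 185 and 96.0 on the OT1 arrays, at 151, 126, 214 and 96.2 in HY_low and at 232, 164, 239 and 86.1 in HY_high. Array 4 was the lowest and array 3 the highest of each group. HY_high minus OT1 was 0.34 (95% interval -0.57 to 1.25, limma adjusted p = 1.0), and blocking on the array number narrowed the interval to -0.08 to 0.75. HY_high minus HY_low was 0.25 ± 0.43.

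Stat3, the transcription factor downstream of gp130, was brightest on array 1 of each group. Its brighter probe set (99100_at) was at 55.4, 18.4, 33.0 and 19.6 in OT1, at 94.0, 29.96, 45.3 and 16.4 in HY_low and at 106, 27.7, 48.7 and 27.2 in HY_high. HY_high exceeded OT1 within 4 of 4 numbers, where 10.4% of probe sets did so, with log2 differences of 0.94, 0.59, 0.56 and 0.47. The mean difference of 0.64 ± 0.58 did not pass (limma adjusted p = 1.0, or 0.265 with the block). The dimmer probe set (99099_at) was higher in 2 of 4 numbers and had a difference of 0.31 ± 0.49 (adjusted p = 1.0). Blocking on the array number gave 95% intervals of 0.14 to 1.14 on the brighter and -0.30 to 0.92 on the dimmer probe set. These intervals are not adjusted for the number of probe sets tested. HY_high minus HY_low was 0.22 ± 0.58 and 0.05 ± 0.49 on the 2 probe sets.

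**Figure D1:**
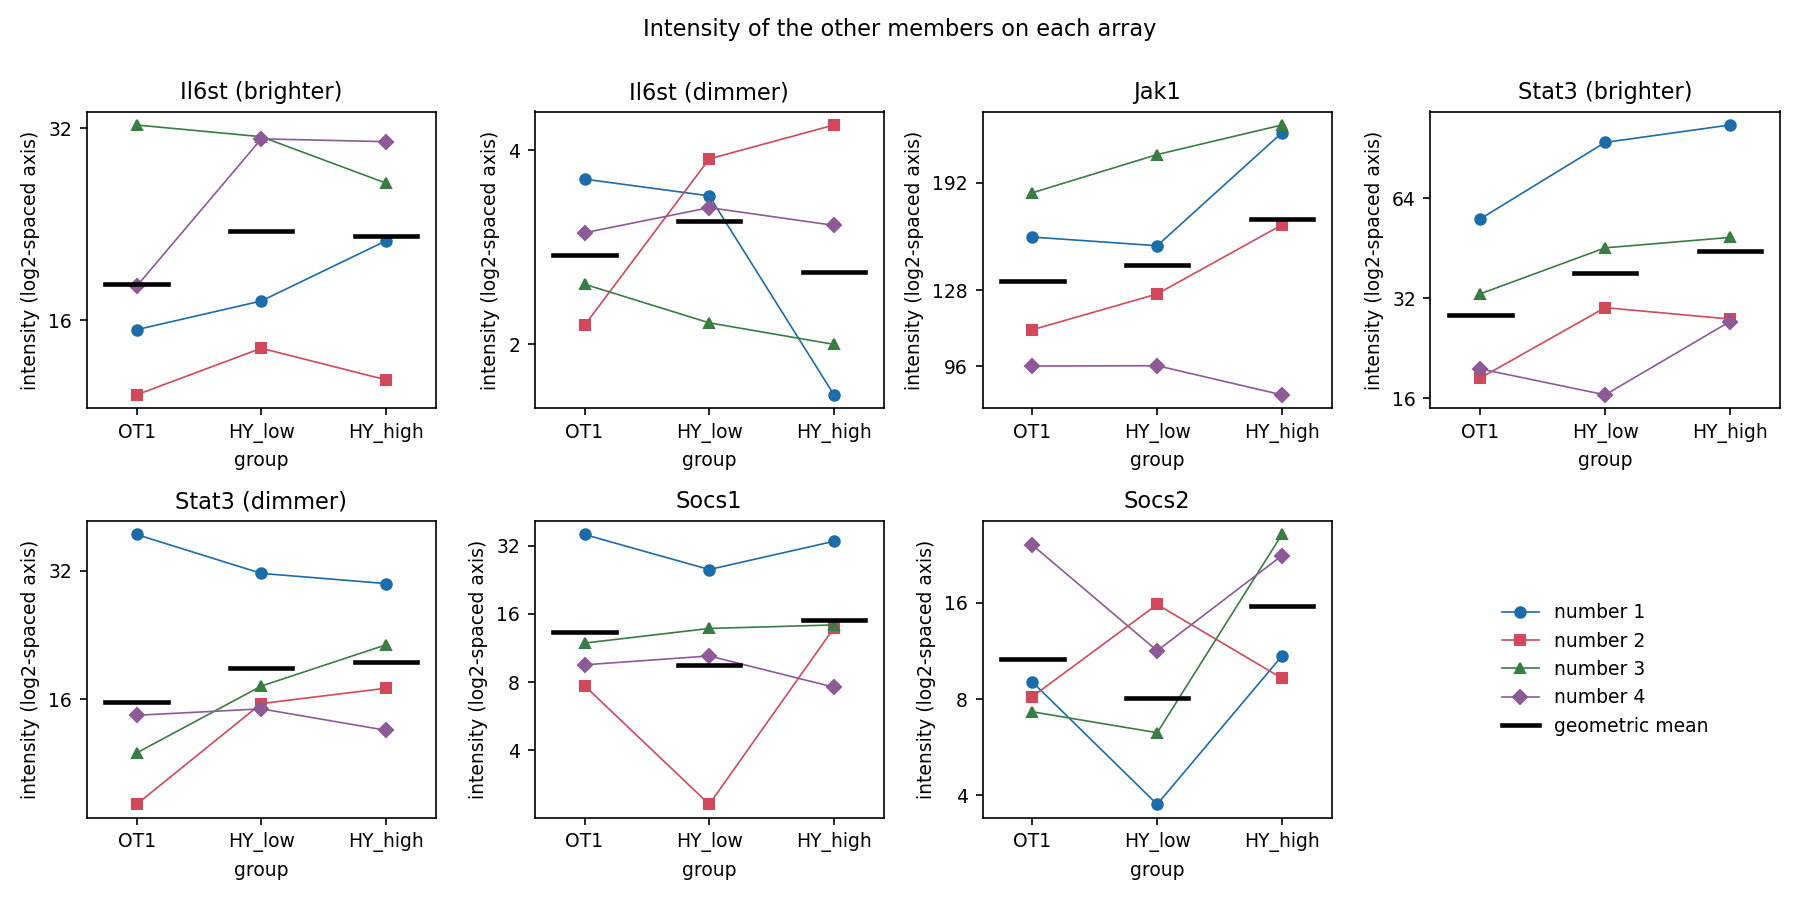
Intensity (log2-spaced axis) of Il6st, Jak1, Stat3, Socs1 and Socs2 on each array by group, with lines joining arrays of the same number and black bars for the geometric mean of 4 arrays. The groups overlap in every panel, and for Jak1 array 4 is the lowest and array 3 the highest of each group.

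Socs3, the STAT3-induced inhibitor of gp130 signalling, was highest in HY_low on both of its probe sets. The brighter one (162206_f_at) is of the f type, which can read several related transcripts. It was at 26.6, 30.7, 35.8 and 27.4 on OT1 arrays 1 to 4, at 124, 94.7, 71.8 and 46.0 in HY_low, and at 30.4, 14.4, 25.1 and 20.1 in HY_high. The lowest HY_low array thus lay above the highest array of either other group, while OT1 and HY_high overlapped. The dimmer probe set (92232_at) was at 4.62, 1.02, 6.17 and 7.30 in OT1, at 17.1, 9.87, 11.2 and 13.7 in HY_low and at 1.97, 7.22, 3.32 and 1 in HY_high. There too HY_low lay above all 8 other arrays, which stayed below 8. Of the 8695 probe sets tested, 10 (0.115%) had HY_low above every OT1 and every HY_high array, and both Socs3 probe sets were among them by the values just given. As Socs3 was picked out for its difference between the HY groups, this count is a description. In HY_high against HY_low 0.782% of probe sets were lower with no overlap and 1.24% higher, and in HY_low against OT1 0.886% were higher with no overlap.

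On the brighter probe set Socs3 had a geometric mean of 29.9 for OT1, 78.9 for HY_low and 21.7 for HY_high. HY_low exceeded OT1 by a log2 difference of 1.40 ± 0.41, which is 2.64-fold, and HY_high lay below HY_low by -1.86 ± 0.41. Within numbers 1 to 4 HY_high minus HY_low was -2.03, -2.72, -1.52 and -1.19, and HY_low minus OT1 was 2.22, 1.62, 1.0 and 0.75. Array 4 had the smallest step in each direction. HY_low exceeded OT1 within 4 of 4 numbers on both probe sets, as did 9.73% of all probe sets, while 7.38% were lower within all 4. HY_high minus OT1 was -0.46 ± 0.41, close to its error. With the floor at 8 the brighter probe set kept its differences of 1.40 and -1.86, because no array lay below 8. The dimmer one had 1.73 ± 0.65 and -2.27 ± 0.65 in the same order, and 0.66 and -0.66 with the floor at 8, since all 8 of its values outside HY_low lie under that floor.

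The 5′ ends of the members were searched for TTCNNNGAA, the palindromic motif that STAT dimers bind and that reads the same on both strands. The stretches of Socs3 and Cish are shown because both are textbook STAT targets and hold a match. RefSeq promoter windows (build GRCm38.p6, 250 bases before to 50 after a gene's start) were at hand for 7 of the 8 members, and 8.3% of all 32851 windows hold the motif. It was found in the windows of Socs3, 1 match, and Cish, 2 matches that do not overlap. The Socs3 stretch shown is the 250 bases before the start at chr11:117969367-117969616 on the minus strand. The Cish stretch is the first 20 transcribed bases at chr9:107296659-107296678 on the plus strand. Capitals mark the motif, and other bases are in lower case.
Socs3: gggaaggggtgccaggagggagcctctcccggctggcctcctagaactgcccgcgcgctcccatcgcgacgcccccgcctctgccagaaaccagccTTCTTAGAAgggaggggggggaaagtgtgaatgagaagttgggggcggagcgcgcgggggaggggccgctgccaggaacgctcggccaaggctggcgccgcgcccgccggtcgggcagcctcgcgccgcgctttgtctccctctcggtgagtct
Cish: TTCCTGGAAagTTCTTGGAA
The Socs3 match begins at base -154 counted back from the start, and the Cish matches begin at bases 1 and 12 after it. A match is a run of letters and shows no binding. In the windows of Il6ra, Il6st, Socs1, Stat3 and Jak1 these letters were not found.

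Cish (100022_at), a feedback inhibitor induced through STAT5, had its lowest geometric mean in OT1 (11.9), with 19.7 in HY_low and 29.7 in HY_high. On arrays 1 to 4 it was at 23.5, 4.97, 10.3 and 17.0 in OT1, at 41.3, 15.0, 12.8 and 19.1 in HY_low and at 50.5, 26.5, 29.5 and 19.7 in HY_high. Within each number the order was OT1, then HY_low, then HY_high, an order that 0.518% of the 8695 probe sets showed within all 4 numbers. The groups themselves overlapped. HY_high minus OT1 was 1.31 ± 0.53 (2.49-fold, 95% interval 0.19 to 2.44, n = 4 each), with an unadjusted limma p of 0.0243 and an adjusted p of 1.0. With the block the adjusted p was 0.0569, the lowest under any alternative, so the difference did not pass by either fit. Array 4 contributed little, with a log2 difference of 0.21, against 1.10, 2.41 and 1.52 within numbers 1 to 3. HY_low minus OT1 was 0.73 ± 0.53 (limma adjusted p = 1.0, or 0.552 with the block), and HY_high minus HY_low was 0.59 ± 0.53, with HY_high above HY_low within 4 of 4 numbers, as for 9.81% of probe sets.

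**Figure D2:**
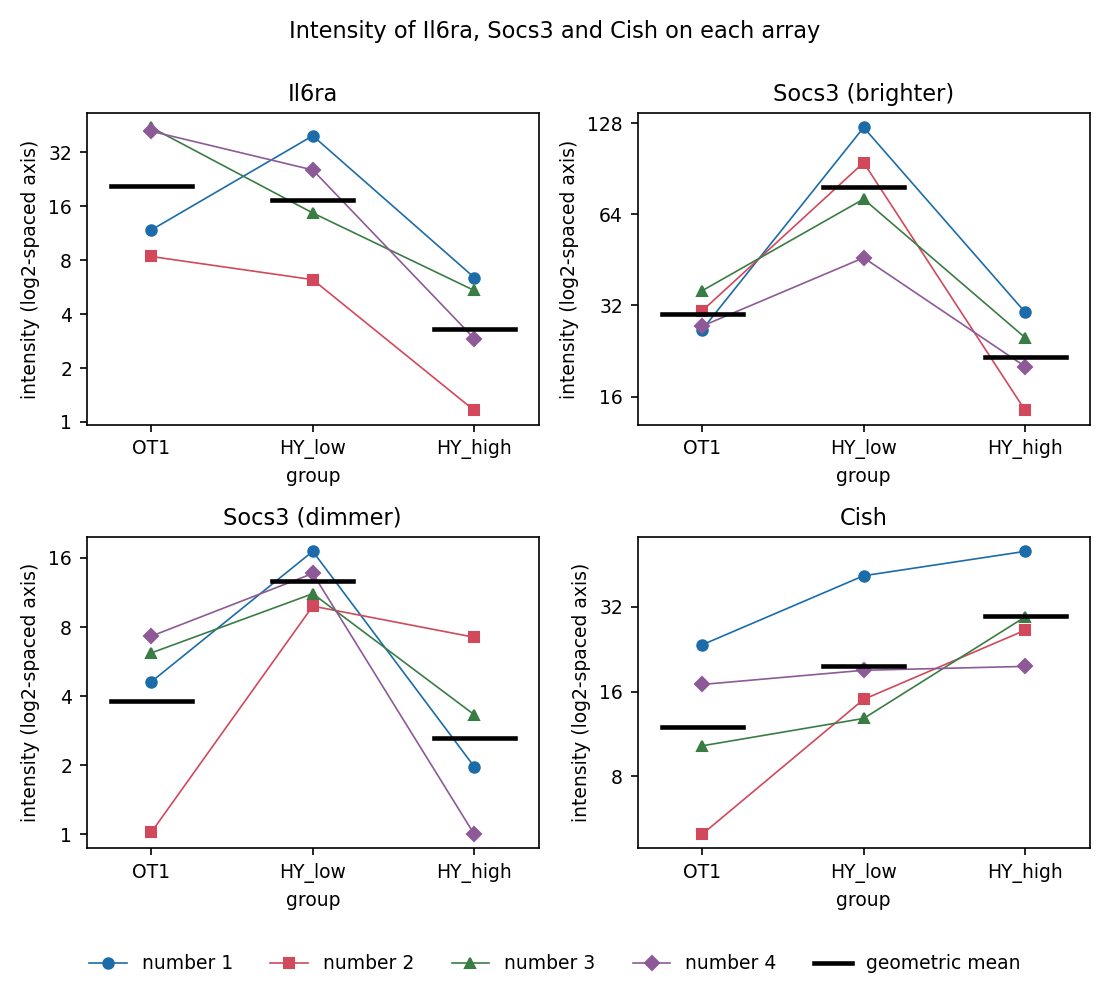
Intensity (log2-spaced axis) of Il6ra, both Socs3 probe sets and Cish on each array by group, with lines joining arrays of the same number and black bars for the geometric mean of 4 arrays. Il6ra falls below 8 on all HY_high arrays, Socs3 peaks in HY_low on both probe sets, and Cish goes up from OT1 to HY_low to HY_high along each line.

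Socs1 (92832_at), which inhibits JAKs and interferon signalling, had overlapping groups. It was at 35.9, 7.72, 11.9 and 9.54 in OT1, at 25.1, 2.31, 13.8 and 10.4 in HY_low and at 33.5, 13.9, 14.3 and 7.60 in HY_high. Array 1 was the brightest of each group, and HY_low array 2 was the dimmest of the 12. HY_high minus HY_low was 0.65 ± 0.69, or -0.03 without HY_low array 2. Against OT1 the log2 difference was -0.48 in HY_low (95% interval -1.92 to 0.97) and 0.17 in HY_high (-1.28 to 1.62), with limma adjusted p = 1.0 for both. These are the widest intervals of the members tested.

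Socs2 (99475_at), a STAT5-induced inhibitor best known from growth hormone signalling, was at 9.04, 8.15, 7.30 and 24.3 in OT1, at 3.75, 15.8, 6.28 and 11.3 in HY_low and at 10.9, 9.30, 26.2 and 22.5 in HY_high. The groups overlapped, and the geometric means were 10.7, 8.06 and 15.6. HY_high exceeded HY_low within 3 of 4 numbers, with a mean log2 difference of 0.96 ± 0.56, and number 2 went the other way at -0.77. HY_high minus OT1 was 0.55 (95% interval -0.62 to 1.72) and HY_low minus OT1 was -0.41 (-1.58 to 0.77), with limma adjusted p = 1.0 for both.

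**Figure D3:**
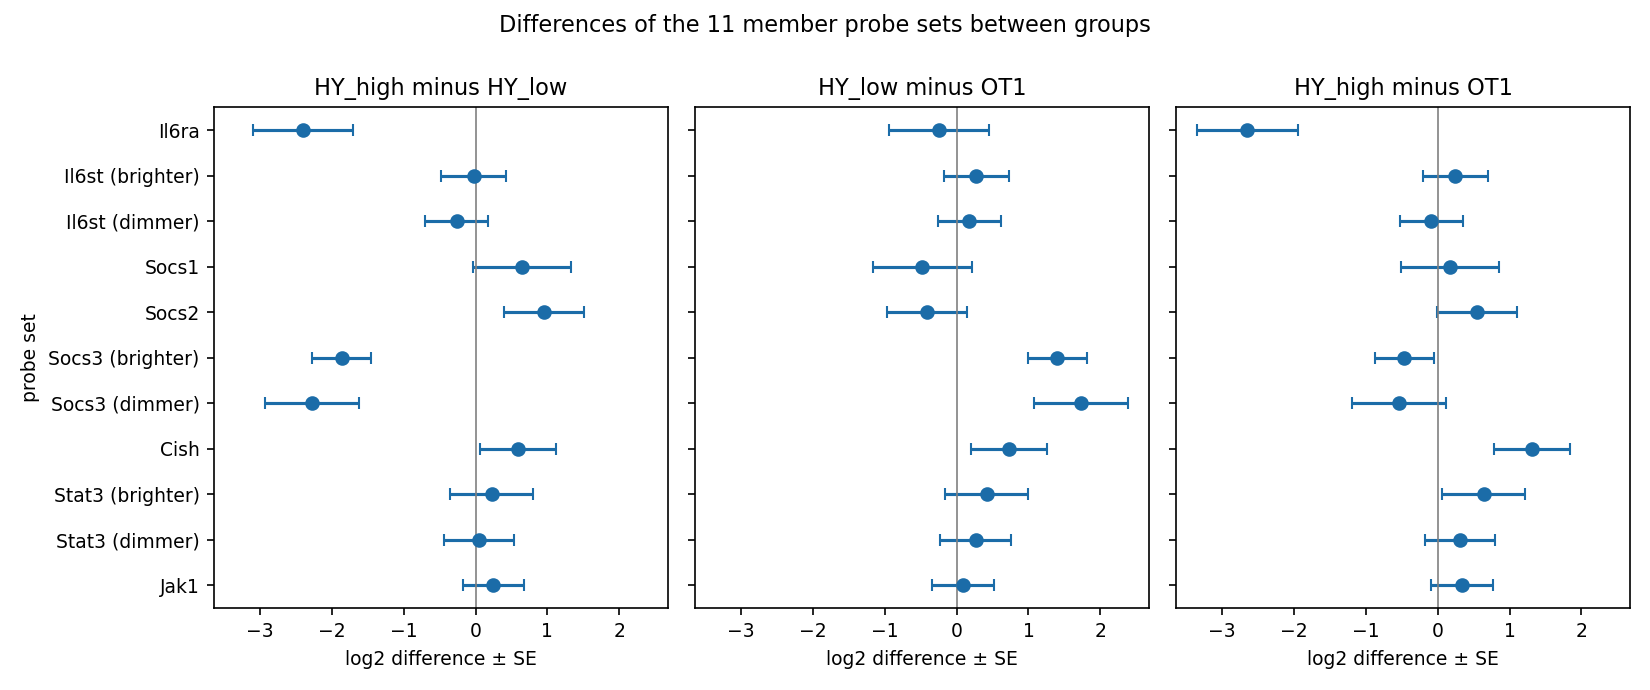
Log2 difference with its standard error for the 11 member probe sets in the 3 comparisons (4 arrays a group, limma fit over all 12 arrays). Il6ra lies left of 0 in both HY_high panels (-2.40 and -2.65), Socs3 changes side between the first panel (-1.86 and -2.27) and the second (1.40 and 1.73), and Cish lies right of 0 in all 3 (0.59, 0.73 and 1.31).

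All 11 member probe sets passed the filter on dim values, a mean log2 intensity above the 30th percentile. Of the 8 that belong to Il6st, Jak1, Stat3, Socs1, Socs2 and Cish, 0 passed limma's adjusted threshold of 0.05 in HY_low against OT1, where 0.023% of all probe sets were called, and 0 in HY_high against OT1, where 0.173% were. Blocking on the array number left the counts at 0 and 0, against 0.092% and 1.36% of all probe sets. Without the block, an unadjusted p under 0.05 was found for 0 of the 8 in HY_low against OT1, where 2.65% of all probe sets had one, and for 1, Cish, in HY_high against OT1, where 4.08% did. With the block it was found for 1, Cish, in HY_low against OT1. In HY_high against OT1 it was then found for 2, Cish and the brighter Stat3 probe set. The share of all probe sets was not computed for these blocked counts. Groups that did not overlap were found for 2 of the 11 in HY_high against HY_low, both of Socs3, where 2.02% of probe sets did not overlap. They were found for 2 in HY_low against OT1, again both of Socs3 (1.63% of all), and for 1, Il6ra, in HY_high against OT1 (2.53% of all, 1.52% higher and 1.01% lower). The 3 comparisons share arrays pairwise, so these counts do not add up as separate evidence. The median log2 difference of the 11 was 0.05 in HY_high against HY_low, 0.26 in HY_low against OT1 and 0.25 in HY_high against OT1, beside 0.01, 0.01 and 0.02 over all probe sets tested.

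**Figure D4:**
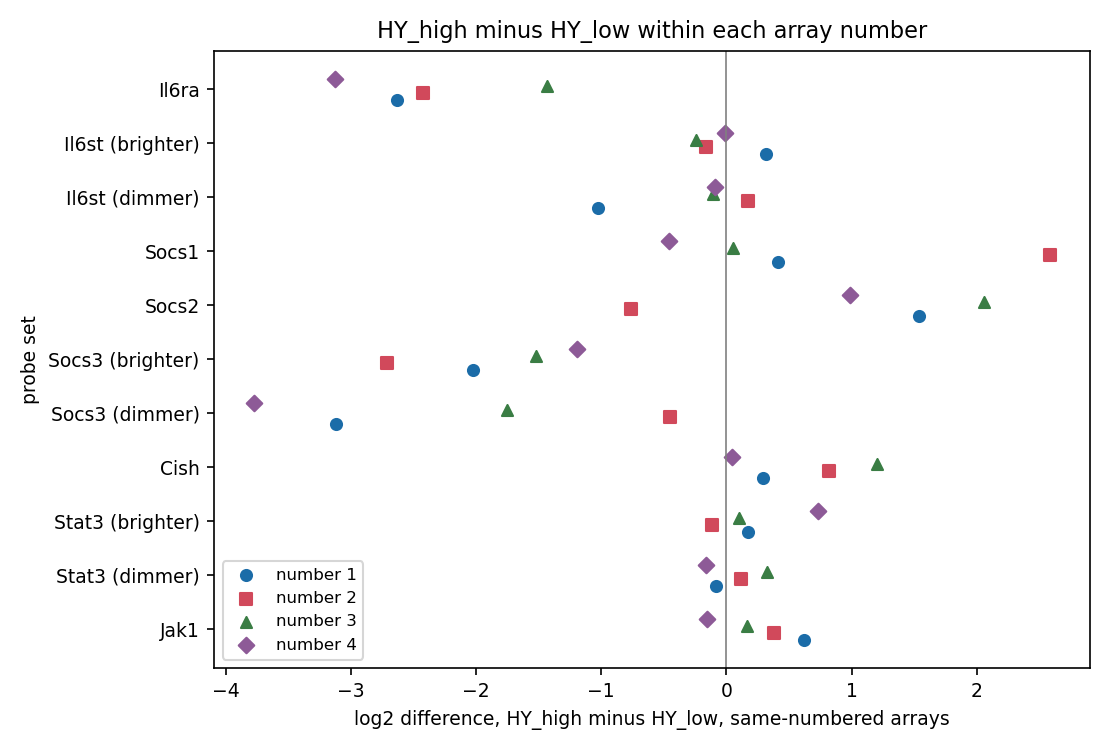
Log2 difference between HY_high and HY_low arrays of the same number for each member probe set, one symbol for each of numbers 1 to 4. All 4 symbols lie left of 0 for Il6ra and for both Socs3 probe sets and right of 0 for Cish, while the other members have symbols on both sides.

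Other genes of the pathway were taken from a list of 70 by role, of which 58 had a probe set with that symbol alone and 50 passed the filter. None of the 50 passed limma's threshold in any of the 3 comparisons, in either direction, where 0.023%, 0.023% and 0.173% of all probe sets did in HY_high against HY_low, HY_low against OT1 and HY_high against OT1. An unadjusted p under 0.05 was found for 2 in HY_high against HY_low, 2 in HY_low against OT1 and 4 in HY_high against OT1. These are 4%, 4% and 8% of the 50, beside 2.96%, 2.65% and 4.08% of all probe sets. With the block 0 passed in HY_high against HY_low (0.345% of all probe sets), 0 in HY_low against OT1 (0.092%) and 1 in HY_high against OT1 (1.36%). That gene was Tnfrsf1b, a receptor for tumour necrosis factor listed as a target, at 1.36 ± 0.53 (limma adjusted p = 0.942, and 0.0265 under blocking). With the block and intensities under 8 set to 8 the count was 0, so that call was lost.

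Among the ligands, Il6 itself was on the array and lay between 1 and 2.4 on all 12 arrays, and Il11 between 1 and 2.05. The only cytokine above the filter was Ctf1, which signals through gp130, with geometric means of 2.47 in OT1, 1.93 in HY_low and 4.27 in HY_high. Of 8 other receptor chains the lower p-values in HY_high against OT1 were those of Il4ra (-0.59 ± 0.46) and Ifngr1 (0.61 ± 0.45), with limma adjusted p = 1.0 for both. Of 7 further kinases and STATs they were those of Jak2, which works beside JAK1 at gp130, at 1.04 ± 0.47 (adjusted p = 1.0, and 0.0754 when blocked), and Stat4, at 0.82 ± 0.54 (adjusted p = 1.0). Jak2 was at 5.93, 8.22, 14.5 and 9.28 in OT1 and at 10.0, 20.1, 31.2 and 18.8 in HY_high, higher in each number, with groups that overlap.

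Of 9 phosphatases and other negative regulators they were those of Socs5 and Sh2b3, an adaptor that restrains JAK2. Socs5, a further SOCS gene, was at 9.17, 11.3, 9.33 and 8.86 in HY_low and at 3.76, 2.17, 6.09 and 5.80 in HY_high. These groups did not overlap, as for 0.782% of all probe sets in that direction. OT1 was spread between 4.32 and 10.1. HY_high minus HY_low was -1.22 ± 0.47 for Socs5 (limma adjusted p = 1.0, or 0.312 with the block), and HY_high minus OT1 was -0.76 ± 0.47 for Socs5 and 0.57 ± 0.50 for Sh2b3 (adjusted p = 1.0 for both). Of 5 sheddases and adaptors, Sos1, which links receptors to Ras, had 1.29 ± 0.53 in HY_high against OT1 (adjusted p = 1.0, or 0.163 with the block) and Adam10, a protease that sheds receptors, 0.75 ± 0.71 (adjusted p = 1.0). Of 20 target genes, Il2ra had 1.17 ± 0.47 (limma adjusted p = 0.993) with all values at or below 5.28. The median log2 difference of the targets was 0.37 in HY_low against OT1 and 0.51 in HY_high against OT1. Over all 50 pathway genes it was 0.26 and 0.34, and over all probe sets tested 0.01 and 0.02. Sheddases and adaptors had 0.29 and 0.60 in the same order, and the shift of a role was not tested. In each of these comparisons the groups overlapped for all targets but 1, Pim2, a kinase induced by STATs, which lay lower in every array of HY_low (7.01 to 19.5) and of HY_high (13.3 to 19.7) than in OT1 (23.1 to 54.6), as were 0.748% and 1.01% of all probe sets.

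**Figure D5:**
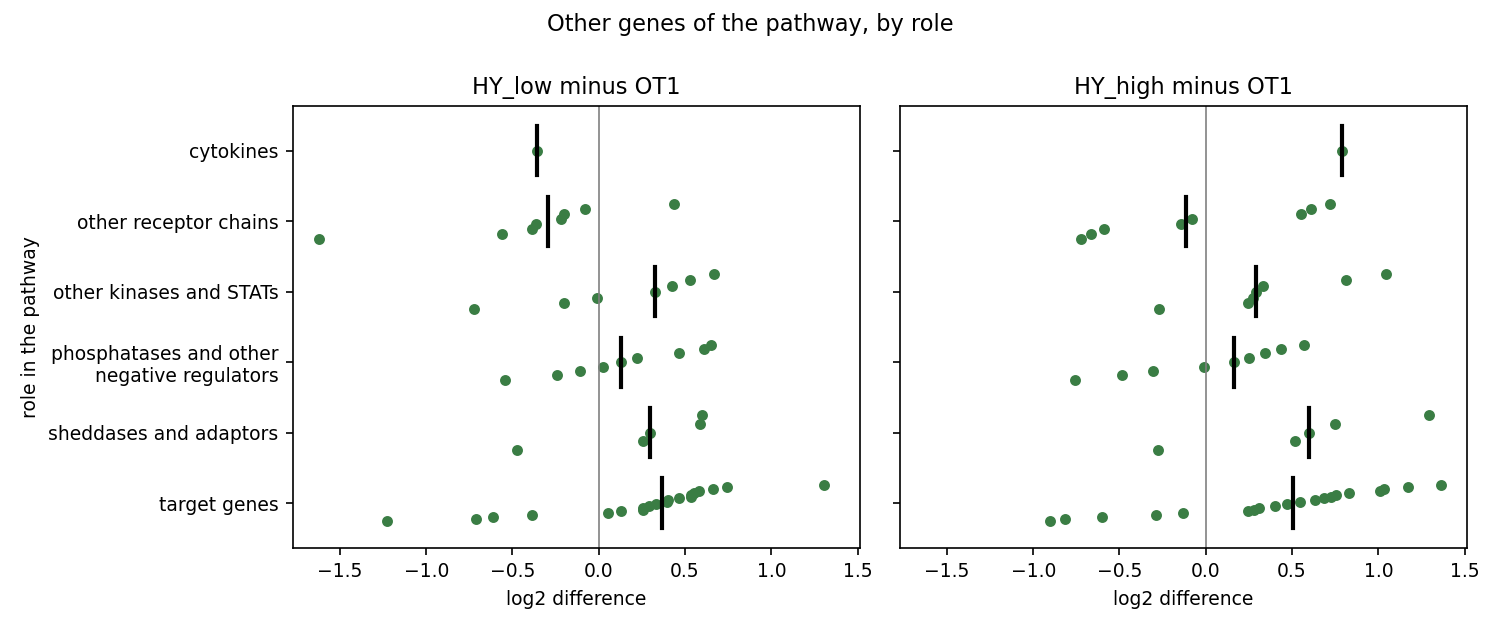
Log2 difference from OT1 of 50 other genes of the pathway by role, 1 point a gene and a black bar for the median of each role, for HY_low (left) and HY_high (right). Points lie on both sides of 0 in every role with more than 1 gene. The target genes have medians of 0.37 and 0.51, beside 0.26 and 0.34 for all 50 genes. Both panels use the same OT1 arrays.

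The genes most like the 2 chosen members were found over the 12 arrays by Pearson's r of log2 intensity, with values under 8 set to 8, among 3866 probe sets above 8 on at least 6 arrays. For Il6ra they were Sac3d1 (r = 0.90), Rpp21 (0.88), Ift46 (0.85), Atp5d (0.84) and Tbxa2r (0.84). For the brighter Socs3 probe set they were Per3, a circadian clock gene (r = 0.90), Nisch (0.79), E4f1 (0.78), Ankrd13a (0.76) and Surf2 (0.76). Per3 was at 10.2 to 15.9 in HY_low, above its 5.63 to 7.56 in OT1 and its 6.32 to 9.36 in HY_high. These r values are descriptive, and the arrays share groups and numbers.

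Lists of cell type markers were read beside these results. The summed intensity of the 10 thymocyte markers was 1737 to 3044 in OT1, 1551 to 3467 in HY_low and 1021 to 1471 in HY_high, so HY_high lay below both other groups with no overlap. Cd8b1, a chain of the CD8 co-receptor, was at 172 to 1374 in OT1 and HY_low and at 1 to 8.26 in HY_high. Without Cd8b1, left out after its values were seen, the other 9 thymocyte markers summed to 1518 to 2012 in OT1, 1379 to 2425 in HY_low and 1020 to 1465 in HY_high, where HY_high still lay below every OT1 array and overlapped HY_low. The lower sum was not shared by all of these genes. Thy1 was at 407 to 772 in OT1 and 158 to 382 in HY_high, and Cd8a at 257 to 625 and 85.4 to 216. In the same order Cd3d was at 38.5 to 163 and 69.3 to 169, Cd3g at 66.5 to 552 and 166 to 511, and Ptprc at 17.5 to 293 and 7.47 to 293. A list of 5 genes named for the double-positive stage included Cd8b1, which is on the thymocyte list as well. Its genes summed to 251 to 1232 in OT1, 195 to 1391 in HY_low and 9.11 to 20.9 in HY_high. Most of this sum in OT1 and HY_low was Cd8b1, so it largely repeats the values of that gene. The stage of the cells was not tested. Rag1 was at 3.67 to 9.73 in OT1, 5.34 to 9.80 in HY_low and 1.98 to 5.18 in HY_high. Dntt was at 6.30 to 15.2, 6.63 to 11.5 and 2.05 to 7.21 in the same order. Both were dim and overlapped between OT1 and HY_high, and Rag2 and Ptcra never exceeded 8. Between HY_low and HY_high Dntt overlapped. Rag1 was lower in HY_high by a narrow gap (5.18 against 5.34), as were 0.782% of probe sets with no overlap. The sums that include Cd8b1 were thus lower in HY_high, where Il6ra was dim as well. The brighter Socs3 probe set had similar geometric means in OT1 (29.9) and HY_high (21.7) and a higher one in HY_low (78.9). The part of these markers in the Il6ra and Socs3 results was not tested.

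The 10 macrophage and dendritic cell markers summed to 108 to 314 in OT1, 128 to 606 in HY_low and 130 to 565 in HY_high. Most of this sum was 1 gene, Ctss, a lysosomal protease, at 81.2 to 583 over the 12 arrays. Without Ctss, also left out after its values were seen, the other 9 genes summed to 22.4 to 26.7 in OT1, 23.0 to 57.9 in HY_low and 22.4 to 36.5 in HY_high. Of the 10 genes 5 exceeded 8 on some array, while Cd68, Adgre1, Itgam, Mpeg1 and Fcgr3 did not. The part of these cells in the Socs3 values was not tested. Other lists summed to at most 56.4 for 5 B cell genes, 8.94 for 2 NK cell genes, 27.3 for 7 thymic epithelial genes, 89.3 for 7 fibroblast genes, 17.6 for 2 red cell genes and 24.6 for 4 endothelial genes on any array.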

How the data were processed

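Total RNA of 12 thymocyte samples had been measured on Affymetrix mouse arrays. The deposited values are intensities on a linear scale in a table of 12488 probe sets, and the background correction, summary and scaling the authors applied are not given in the sources used. The 66 control probe sets were dropped, values were put on a log2 scale with no floor or further scaling, and the 8695 probe sets with a mean log2 above the 30th percentile (intensity 1.76) were tested. Of 12422 probe sets 10833 matched 1 gene symbol, 396 several and 1193 none, with symbols updated by gene ID, and a pathway gene was read from its brightest probe set.

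A single model in limma 3.58.1 (R 4.3.3) had 3 group means, 9 residual degrees of freedom and an intensity trend. P-values are two-sided and adjusted over the 8695 by Benjamini-Hochberg, with a threshold of 0.05. Differences are log2 with standard errors, and group levels are geometric means. Arrays of different groups with the same number had correlated deviations from their group means (r from 0.341 to 0.593 in 12 pairs, against -0.40 to 0.163 in 36 other pairs), so the numbers pair the arrays. This pairing rests on the values, since no label states it. A blocked fit (6 residual degrees of freedom) is quoted where it changes a call or a count of calls, and beside some other results. The fit was tested on simulated data with known changes. Members, lists and tests were chosen with earlier results of these data known. Named pathway genes are those called in a comparison and, per role, the 2 with the smallest p in HY_high against OT1, and genes like a member are the 5 with the highest r. Genes named outside this rule were chosen after their values were seen, Pim2 among them.

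Alternatives were the block, quantile and median scaling, floors of 8 and 16, an added 16, no filter and a filter at the 50th percentile, no trend, array weights, fits of 2 groups, and each array left out. The block together with the floor at 8 was added after seeing the data. No genome was given, and promoter sequences are RefSeq's.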

Additional observations from a re-analysis of the deposited data

Results flagged for a closer look

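In 33 groups of 4 arrays (11 member probe sets in 3 groups), 1 array stood apart from the rest of its group on the log2 scale, measured by its gap to the nearest array over the range of the group. It was HY_low array 1 on the dimmer Stat3 probe set, at 31.57 where the other 3 arrays lay between 15.2 and 17.2. Chance alone marks about 1 group in 20.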

How the results depend on the processing

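The count of tested members past the threshold was 0 in HY_low against OT1 and 0 in HY_high against OT1 under all 24 alternatives. The median log2 difference of the 11 member probe sets in HY_high against HY_low, 0.05, ran from -0.058 to 0.28 when single arrays were left out (0.28 without HY_low array 1, and 0.22 and 0.23 when HY_high array 2 or 4 was dropped) and from -0.0066 to 0.14 otherwise. Il6ra and both Socs3 probe sets kept a negative difference there under all alternatives, with ranges of -2.90 to -0.50, -2.12 to -1.33 and -2.76 to -0.02, the smallest sizes coming from the floor at 16 or the added 16. Over all probe sets the calls in HY_high against HY_low were 2, but 30 with the replicate block, 6 with the block and the floor at 8, 4 with the floor at 8 or at 16, 6 with 16 added, 7 with array weights, 1 with median scaling or the filter at the 50th percentile, 0 without the filter, and 1 to 4 with single arrays left out (4 without HY_low array 1, and 1 without OT1 array 3 or 4, HY_low array 2, 3 or 4, or any HY_high array). In HY_low against OT1 they were 2, but 8 with the block, 1 with the floor at 16, 4 with array weights, and 2 to 3 without single arrays. In HY_high against OT1 they were 15, but 118 with the block, 26 with the block and the floor at 8, 8 with the floor at 8 or 16 or with 2 groups fitted, 9 without the filter, 64 with array weights, and 6 to 17 without single arrays (6 without OT1 array 2 or HY_high array 3, 7 without OT1 array 4 or HY_high array 2, 9 without OT1 array 3 or HY_high array 4). Among pathway genes the block gave 1 call in HY_high against OT1, and 0 together with the floor at 8. The block changed no member's call. Among differences that carry no test, signs turned for Il6ra in HY_low against OT1 under 3 alternatives (leaving out single arrays gave -0.68 to 0.25) and, in HY_high against HY_low, for Il6st brighter under 4, Socs1 under 1, Stat3 brighter under 2 and Stat3 dimmer under 5. Among tested members, 6 log2 differences from OT1 changed sign under at least 1 alternative, none of them past the threshold. With the floor at 16, the dimmer Stat3 probe set in HY_low became -0.050 and Socs1 in HY_high became -0.025. The other changes among tested members came from leaving out single arrays, which gave ranges in HY_low of -0.94 to 0.21 for Socs1 (above 0 without HY_low array 2), -0.019 to 0.82 for Stat3 brighter (below 0 without HY_low array 1), -0.0029 to 0.70 for Stat3 dimmer (below 0 without OT1 array 2) and -0.11 to 0.27 for Jak1 (-0.064 without OT1 array 4 and -0.11 without HY_low array 3). In HY_high the ranges were -0.34 to 0.12 for Il6st dimmer (above 0 without OT1 array 1, HY_high array 1 or HY_high array 3) and -0.22 to 0.65 for Socs1 (below 0 without OT1 array 2 or HY_high array 1). The dimmer Il6st probe set had no value with a floor or with the filter at the 50th percentile. Dim signal limits Il6ra in HY_high and the dimmer Socs3 and Il6st probe sets.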

Other observations

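The genes here were singled out after their values were seen. Bcl3, a target of STAT3 like Socs3, had geometric means of 9.76 in OT1, 24.1 in HY_low and 11.5 in HY_high, but its arrays were spread widely, from 2.91 to 22.9, from 12.2 to 47.9 and from 1.90 to 34.4. HY_low minus OT1 was 1.31 ± 0.79 and HY_high minus HY_low was -1.06 ± 0.79 for Bcl3, both with limma adjusted p = 1.0. With the block the adjusted p was 0.485 and 0.471, so neither difference passed by either fit. HY_low exceeded OT1 within each number, as did 9.73% of all probe sets, while HY_high exceeded HY_low within number 2.

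Il7r, the interleukin-7 receptor chain of maturing thymocytes, was lower in every HY_low array (15.0 to 32.2) than in OT1 (34.3 to 180), as were 0.748% of all probe sets. The gap was narrow, since OT1 arrays 1 and 4 stood at 34.3 and 36.2. HY_high spanned 22.8 to 247. HY_low minus OT1 was -1.62 ± 0.69 for Il7r (limma adjusted p = 1.0, or 0.193 with the block).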
